A study of Mus musculus with 84 samples.

Results

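De novo lipogenesis is the route by which a cell builds fatty acids from acetyl-CoA, and 10 of its genes are described here in liver and in epididymal white adipose tissue (eWAT) of mice with diet-induced obesity (DIO). The genes are Srebf1, Mlxipl, Thrsp, Acly, Acaca, Fasn, Me1, Elovl6, Scd1 and Pnpla3, chosen as a list of symbols and found among the 48794 Ensembl gene identifiers of the deposited tables. Each symbol matched 1 identifier, and all 10 genes passed the filter on low values in both tissues.

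The animals were male C57BL/6J mice kept on a 60% high-fat diet, housed singly and 22 weeks old at the start, and they were dosed subcutaneously each day for 30 days. In each tissue there were 7 groups of 6 libraries. One group received vehicle. In 4 groups the compound was BI 456906, an agonist of both the GLP-1 receptor and the glucagon receptor, at 30, 20, 10 or 3 nmol/kg. In the other groups it was semaglutide, an agonist of the GLP-1 receptor, at 100 or 20 nmol/kg. The sample titles name this compound by a code only, and its doses match those of semaglutide in the study. All groups shared the diet, so the vehicle group is an obese control, not a lean one. The labels do not tie a liver library to the eWAT library of the same mouse, and every comparison with vehicle within a tissue used the same 6 vehicle libraries.

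In this pathway the regulators SREBP-1c, encoded by Srebf1, and ChREBP, encoded by Mlxipl, respond to insulin and to glucose and switch on the genes of the enzymes. ATP citrate lyase (Acly) makes cytosolic acetyl-CoA, acetyl-CoA carboxylase 1 (Acaca) makes malonyl-CoA, and fatty acid synthase (Fasn) joins them into palmitate with NADPH, part of which comes from malic enzyme 1 (Me1). Elovl6 lengthens palmitate and Scd1 puts a double bond into the product. Thrsp (Spot 14) is a small protein tied to lipogenic rate, and Pnpla3 is a lipid droplet protein whose gene is a target of the same regulators. Liver and adipose tissue are the main sites of the pathway in mice.

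The promoters of 4 of these genes are shown because they stand for the patterns described below: Thrsp was lower in treated liver but not in eWAT, Pnpla3 was lower in treated eWAT but not in liver, and Fasn and Elovl6 were lower in both. The sequences are from RefSeq on GRCm38.p6 and run from 250 bases before to 50 bases after the annotated start, 5′ to 3′ on the strand of the gene. Capitals mark CCAAT boxes and GC boxes (letters GGGCGG) on either strand. In the Fasn promoter 2 of the CCAAT boxes, on opposite strands, overlap.
Thrsp: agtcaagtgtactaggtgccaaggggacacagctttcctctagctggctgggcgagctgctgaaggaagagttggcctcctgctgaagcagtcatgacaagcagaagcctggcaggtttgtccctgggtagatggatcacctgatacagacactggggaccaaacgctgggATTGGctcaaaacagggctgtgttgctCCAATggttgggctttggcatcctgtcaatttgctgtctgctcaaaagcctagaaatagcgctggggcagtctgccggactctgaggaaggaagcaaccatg
Pnpla3: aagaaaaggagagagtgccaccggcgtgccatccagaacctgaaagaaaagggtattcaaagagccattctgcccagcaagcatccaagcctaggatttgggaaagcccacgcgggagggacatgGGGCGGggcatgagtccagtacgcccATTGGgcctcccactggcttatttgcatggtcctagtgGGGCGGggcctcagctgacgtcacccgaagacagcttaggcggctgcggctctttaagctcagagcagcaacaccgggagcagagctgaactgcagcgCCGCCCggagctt
Fasn: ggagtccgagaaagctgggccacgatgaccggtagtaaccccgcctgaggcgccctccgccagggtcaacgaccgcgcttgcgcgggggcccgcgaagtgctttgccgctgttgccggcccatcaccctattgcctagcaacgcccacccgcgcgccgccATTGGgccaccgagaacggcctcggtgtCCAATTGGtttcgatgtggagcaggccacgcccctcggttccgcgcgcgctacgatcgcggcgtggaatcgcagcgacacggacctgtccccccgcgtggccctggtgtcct
Elovl6: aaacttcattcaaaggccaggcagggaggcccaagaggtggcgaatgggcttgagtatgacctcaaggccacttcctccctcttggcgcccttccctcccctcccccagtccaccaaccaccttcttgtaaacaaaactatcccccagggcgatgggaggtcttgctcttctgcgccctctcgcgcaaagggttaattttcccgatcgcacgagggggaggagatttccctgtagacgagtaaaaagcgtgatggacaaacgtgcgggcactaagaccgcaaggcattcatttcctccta

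These windows lie at chr7:97417501-97417800 (minus strand, Thrsp), chr15:84167566-84167865 (plus, Pnpla3), chr11:120824498-120824797 (minus, Fasn) and chr3:129532136-129532435 (plus, Elovl6). Thrsp held 2 CCAAT boxes, Fasn 3, and Pnpla3 held 1 CCAAT box and 3 GC boxes, while none of the letters searched was in the Elovl6 window. Promoter windows were found for 9 of the 10 genes, 13 windows in all. CCAAT was in 8 of the 13 and in 37.4% of 32851 promoters of the same length, and GGGCGG was in 6 of the 13 and in 35.7% of all. The E-box CACGTG, the core of the element that ChREBP binds, was in 1 of the 13, a Mlxipl window, and in 7.15% of all. A sterol regulatory element written TCACNCCAC was also in 1 of the 13, another Mlxipl window, and in 1.24% of all. Such matches describe letters in a window and are not binding sites.

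On GRCm38 the genes lie at 11:60199089-60222581 on the minus strand (Srebf1), 5:135089890-135138382 on the plus strand (Mlxipl), 7:97412938-97417730 on the minus strand (Thrsp), 11:100476353-100528000 on the minus strand (Acly), 11:84129672-84401651 on the plus strand (Acaca), 11:120805846-120824547 on the minus strand (Fasn), 9:86581371-86695953 on the minus strand (Me1), 3:129532355-129638495 on the plus strand (Elovl6), 19:44394455-44407879 on the minus strand (Scd1) and 15:84167837-84187236 on the plus strand (Pnpla3). All 10 are annotated as protein coding. Acaca overlaps Gm11437 on the opposite strand over 19126 bases, and Pnpla3 overlaps Gm49513 on its own strand over 5323 bases. It is not stated whether reads were counted by strand, so the values of Acaca and Pnpla3 may hold reads of these neighbours.

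The libraries held 21676902 to 53869104 reads in liver and 37573004 to 53996914 in eWAT. Tissue markers followed the labels: Alb was between 43236 and 75635 TPM (a share of the transcripts of a library, scaled by gene length) in liver, where Adipoq was at most 0.55 TPM, and Adipoq was between 740 and 3169 TPM in eWAT. Transcripts typical of liver were nevertheless high in part of the eWAT libraries. Alb exceeded 1000 TPM in 5 of them (3 vehicle, 1 at 3 nmol/kg and 1 at 10 nmol/kg BI 456906), and its median was 917 TPM in vehicle and 59.4 TPM at 30 nmol/kg BI 456906. The source of Alb in eWAT was not tested, and shares of liver RNA given below assume that all of it came from liver. For the 10 genes, for the lists of genes around them and for cell type markers, eWAT values without these 5 libraries are therefore given where a call changed. In bulk tissue, fewer cells of a type and less RNA per cell cannot be told apart.

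The level of the genes in vehicle-treated mice differed between them by orders of magnitude. In liver Scd1 led with 1604 ± 285 TPM (mean ± SD, n = 6), followed by Thrsp (396 ± 130 TPM), Mlxipl (211 ± 32.3 TPM), Fasn (158 ± 37.8 TPM), Me1 (114 ± 11 TPM), Srebf1 (76.4 ± 13.1 TPM), Acly (56.7 ± 5.59 TPM), Elovl6 (23.5 ± 5.04 TPM), Acaca (15.5 ± 3.33 TPM) and Pnpla3 (0.303 ± 0.103 TPM). The ranges of neighbours in this order overlapped except between Scd1 and Thrsp, Me1 and Srebf1, Acly and Elovl6, and Acaca and Pnpla3. In eWAT Scd1 led again with 5609 ± 2802 TPM, followed by Fasn (332 ± 192 TPM), Thrsp (324 ± 158 TPM), Me1 (144 ± 38.8 TPM), Acly (118 ± 12.9 TPM), Srebf1 (92.9 ± 13.4 TPM), Acaca (42.04 ± 13.4 TPM), Mlxipl (30.5 ± 8.76 TPM), Pnpla3 (20.4 ± 4.76 TPM) and Elovl6 (6.36 ± 2.05 TPM). Here the ranges of neighbours were separate only between Scd1 and Fasn, Srebf1 and Acaca, and Pnpla3 and Elovl6. Pnpla3 thus stood at 0.303 TPM in liver beside 20.4 TPM in eWAT, and Mlxipl at 211 TPM beside 30.5 TPM. The tables of the tissues were made separately, so these levels were not tested between tissues.

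**Figure D1:**
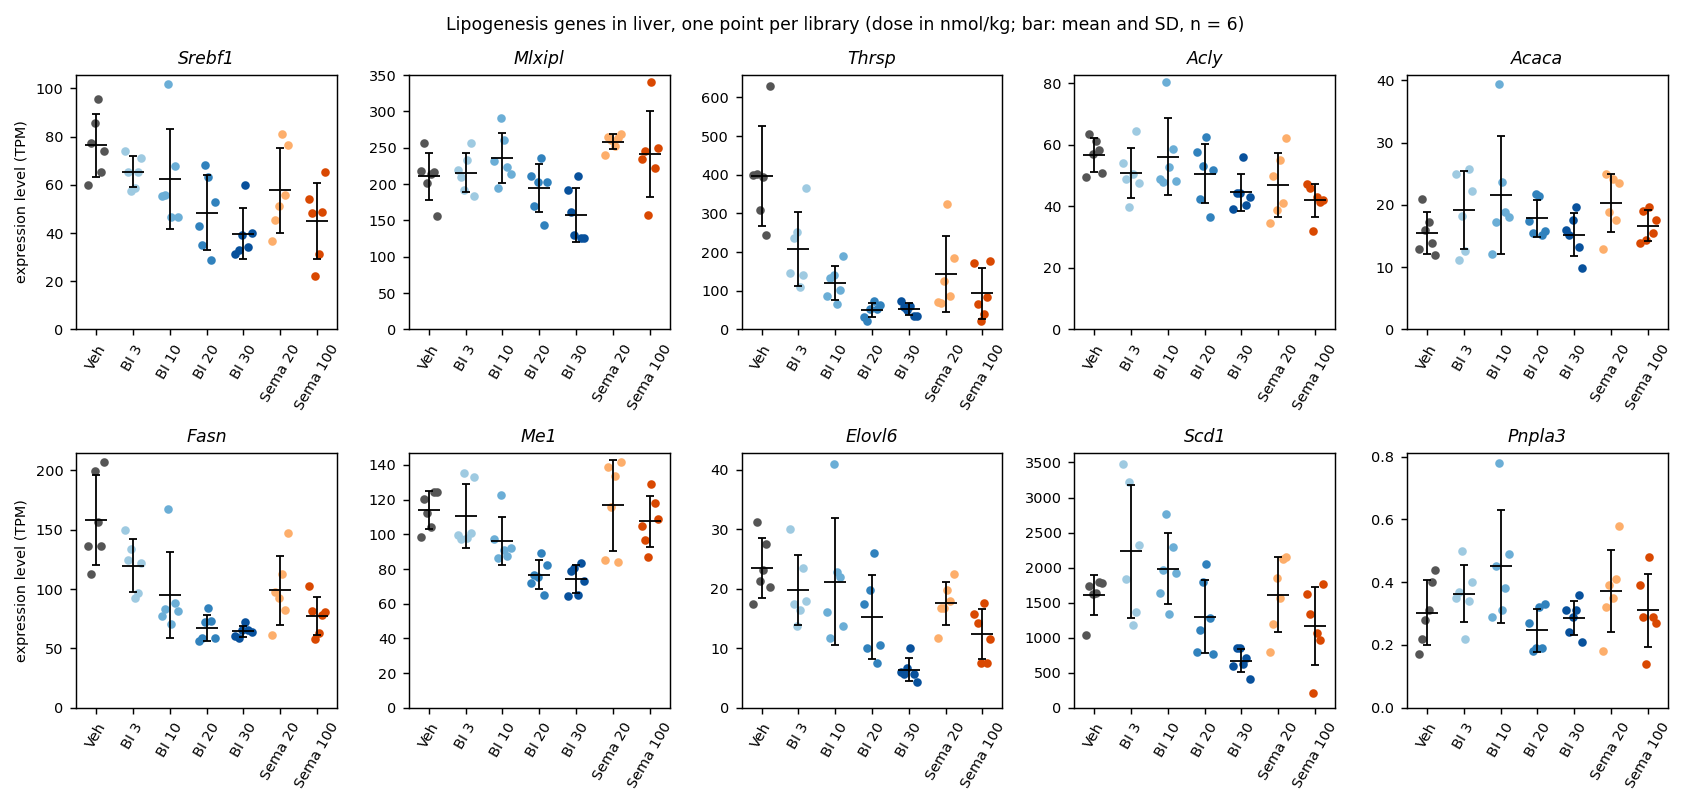
Expression of the 10 lipogenesis genes in liver, in TPM on linear axes that start at 0, with 1 point per library, the 7 treatment groups on the x axis (doses in nmol/kg) and bars for mean and SD (n = 6). Thrsp falls from a vehicle mean of 396 TPM to 51.9 TPM at 30 nmol/kg BI 456906, while Pnpla3 stays under 1 TPM in every group.

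In liver, most of these genes were lower than vehicle at 30 nmol/kg BI 456906. At 20 nmol/kg 6 of 10 were lower, and edgeR, DESeq2 and sample quality weights each called 5. Fewer passed as lower in the other groups, with 5 of 10 at 100 nmol/kg semaglutide, and none passed as higher in the fit described next. Fold changes were tested with limma/voom, and a gene passed at a false discovery rate (FDR, Benjamini-Hochberg over all genes tested) of at most 0.05. At 30 nmol/kg BI 456906, 9 of the 10 genes passed as lower than vehicle, against 29.9% of all 15964 genes tested, and their median log2 fold change was -0.71 against -0.03 for all genes. The number lower grew with the dose, from 0 of 10 at 3 nmol/kg to 2 at 10 nmol/kg and 6 at 20 nmol/kg. The share of all genes that passed as lower grew as well, with 4.93%, 18.1% and 22.9% at these doses. The count of 2 of 10 at 10 nmol/kg is near that share. At 3 nmol/kg 1 gene had an unadjusted p under 0.05, and edgeR and DESeq2 also called 0. With semaglutide 3 of 10 passed as lower at 20 nmol/kg and 5 of 10 at 100 nmol/kg, against 23.5% and 24.1% of all genes. The count at 20 nmol/kg semaglutide is near the share of all genes. With a fall of at least 2-fold also required, 4 of 10 passed at 30 nmol/kg BI 456906 (6.9% of all genes) and 2 of 10 at 100 nmol/kg semaglutide (3.67% of all genes).

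Thrsp fell furthest of the regulators in liver. It was between 244 and 628 TPM in vehicle (median 397 TPM), between 34.1 and 72.8 TPM at 30 nmol/kg BI 456906 (median 54.2 TPM) and between 20.9 and 178 TPM at 100 nmol/kg semaglutide (median 74.9 TPM). None of these treated libraries reached the lowest vehicle library. Thrsp was lower by 1.86 ± 0.42 on the log2 scale (± SE) at 10 nmol/kg BI 456906 (FDR = 0.000543), already without overlap with vehicle, and its log2 fold change was -3.13 ± 0.42 at 20 nmol/kg (FDR = 1.18e-07) and -3.00 ± 0.42 at 30 nmol/kg (FDR = 1.05e-07). The last value is a 7.99-fold fall. Semaglutide gave log2 fold changes of -1.73 ± 0.42 at 20 nmol/kg (FDR = 0.00086) and -2.46 ± 0.42 at 100 nmol/kg (FDR = 8.02e-06). At 3 nmol/kg BI 456906 the value of -1.03 ± 0.42 did not pass (FDR = 0.0986).

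Srebf1 levels in liver ran from 60.0 to 95.8 TPM in vehicle (median 75.7 TPM) and from 31.5 to 60.1 TPM at 30 nmol/kg BI 456906 (median 36.7 TPM), so that only the highest treated library met the vehicle range. The log2 fold change was -0.83 ± 0.22 at 20 nmol/kg (FDR = 0.00176) and -1.11 ± 0.21 at 30 nmol/kg (FDR = 3.12e-05). With semaglutide it was -0.62 ± 0.22 at 20 nmol/kg (FDR = 0.0183; it did not pass on TPM) and -0.90 ± 0.22 at 100 nmol/kg (FDR = 0.000702). Mlxipl lay between 157 and 256 TPM in vehicle (median 216 TPM), between 126 and 211 TPM at 30 nmol/kg BI 456906 (median 146 TPM) and between 240 and 269 TPM at 20 nmol/kg semaglutide (median 262 TPM). These groups overlapped with vehicle. The fall of Mlxipl passed only at 30 nmol/kg BI 456906, with a log2 fold change of -0.42 ± 0.12 (FDR = 0.00241), and semaglutide gave 0.24 ± 0.12 at 20 nmol/kg (FDR = 0.107) and 0.11 ± 0.12 at 100 nmol/kg (FDR = 0.484). With sample quality weights Mlxipl passed at 20 nmol/kg semaglutide.

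Of the enzymes that build the chain, Fasn had the largest fall in liver at 20 and 30 nmol/kg BI 456906. Fasn was between 113 and 207 TPM in vehicle (median 146 TPM), between 58.7 and 72.1 TPM at 30 nmol/kg BI 456906 (median 64.95 TPM) and between 57.8 and 102 TPM at 100 nmol/kg semaglutide (median 79.5 TPM). Its 6 libraries at 20 and at 30 nmol/kg BI 456906 and at 100 nmol/kg semaglutide all lay below vehicle. On the scaled reads the log2 fold change of Fasn was -0.76 ± 0.18 at 20 nmol/kg (FDR = 0.000552), -0.77 ± 0.18 at 30 nmol/kg (FDR = 0.000322) and -0.52 ± 0.18 at 100 nmol/kg semaglutide (FDR = 0.0163), the last of which did not pass with sample quality weights (-0.37). Acly was between 49.5 and 63.5 TPM in vehicle (median 57.8 TPM), between 39.3 and 55.97 TPM at 30 nmol/kg (median 43.6 TPM) and between 31.98 and 47.4 TPM at 100 nmol/kg semaglutide (median 42.5 TPM), and only the semaglutide libraries were all below vehicle. Its log2 fold change was -0.46 ± 0.13 at 30 nmol/kg BI 456906 (FDR = 0.00314), -0.40 ± 0.13 at 20 nmol/kg semaglutide (FDR = 0.014; it did not pass on TPM) and -0.58 ± 0.13 at 100 nmol/kg semaglutide (FDR = 0.00047). At 20 nmol/kg BI 456906 the value of -0.33 ± 0.13 for Acly passed narrowly (FDR = 0.0441) and did not pass with edgeR, DESeq2, TPM, RLE factors, no filter or sample quality weights.

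The deposited tables gave different answers for 2 of these enzymes. The number of scaled reads per TPM of Fasn in liver was 97.5 ± 20.1 in vehicle and 136 ± 10.9 at 30 nmol/kg BI 456906, and that of Acaca was 209 ± 25.1 and 154 ± 14.9. In eWAT the same ratios were 148 ± 6.99 and 138 ± 11.9 for Fasn and 129 ± 8.85 and 133 ± 17.7 for Acaca. On the log2(TPM + 0.1) scale, Fasn in liver therefore gave -1.26 at 30 nmol/kg in place of -0.77, -1.21 at 20 nmol/kg in place of -0.76, and -1.02 at 100 nmol/kg semaglutide in place of -0.52. Acaca, which passed only at 30 nmol/kg on the scaled reads (log2 fold change -0.48 ± 0.16, FDR = 0.00908), gave -0.03 on the log2(TPM + 0.1) scale and did not pass. In TPM, Acaca was between 11.9 and 20.99 in vehicle (median 14.95 TPM) and between 9.87 and 19.6 at 30 nmol/kg (median 15.6 TPM), and the ranges overlapped. The source of the difference between the tables was not tested.

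**Figure D2:**
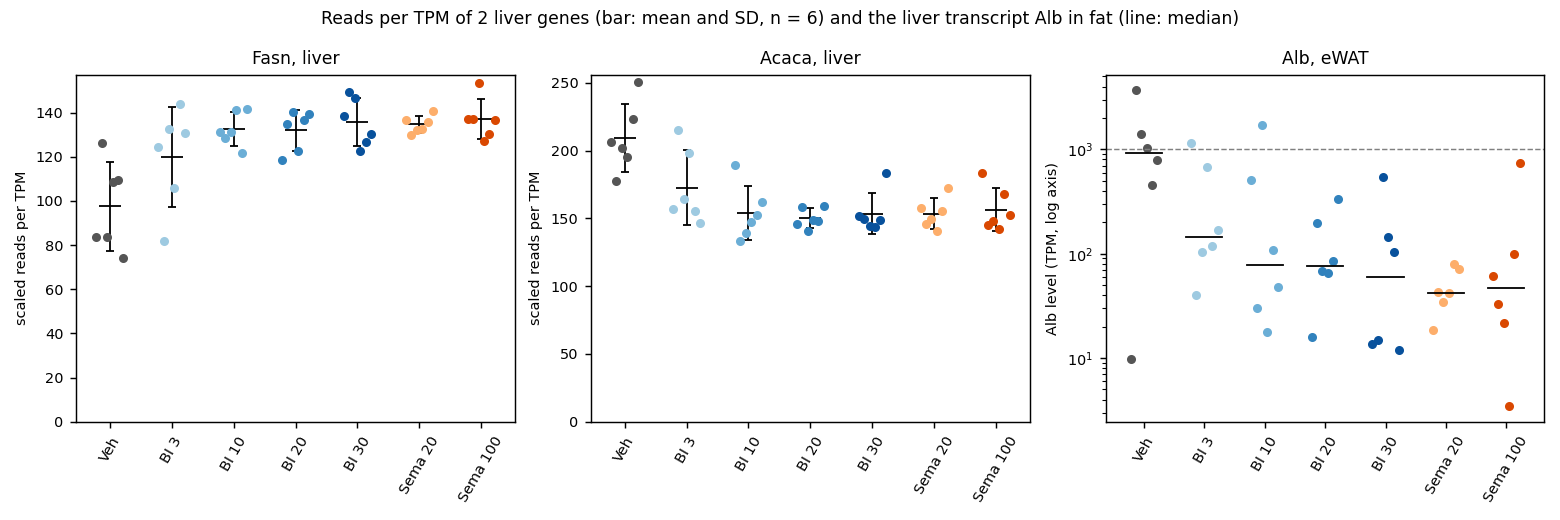
Left and middle, scaled reads per TPM of Fasn and of Acaca in liver, with 1 point per library and bars for mean and SD (n = 6). Right, the liver transcript Alb in eWAT in TPM on a log axis, with the group median as a line and a dashed line at 1000 TPM; vehicle has a median of 917 TPM and semaglutide at 20 nmol/kg of 42.2 TPM.

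Me1, the source of NADPH among the 10 genes, fell in liver with BI 456906 but did not pass with semaglutide. It was between 98.2 and 124 TPM in vehicle (median 116 TPM), between 64.4 and 83.5 TPM at 30 nmol/kg BI 456906 (median 75.8 TPM) and between 87.2 and 129 TPM at 100 nmol/kg semaglutide (median 107 TPM). All libraries at 20 and at 30 nmol/kg BI 456906 lay below vehicle, and the semaglutide libraries overlapped with it. The log2 fold change of Me1 was -0.36 ± 0.12 at 10 nmol/kg (FDR = 0.0131; it did not pass on TPM or with sample quality weights), -0.64 ± 0.12 at 20 nmol/kg (FDR = 2.17e-05) and -0.65 ± 0.12 at 30 nmol/kg (FDR = 8.03e-06). With semaglutide at 100 nmol/kg it was -0.18 ± 0.12 (FDR = 0.208).

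The enzymes that modify the product fell at the top dose. Elovl6 in liver was between 17.4 and 31.2 TPM in vehicle (median 22.2 TPM), between 4.37 and 9.99 TPM at 30 nmol/kg BI 456906 (median 5.88 TPM) and between 7.48 and 17.6 TPM at 100 nmol/kg semaglutide (median 12.9 TPM). Every library at 30 nmol/kg was below vehicle. The log2 fold change was -0.89 ± 0.27 at 20 nmol/kg (FDR = 0.00605), -2.01 ± 0.27 at 30 nmol/kg (FDR = 6.27e-08), a 4.02-fold fall, and -1.09 ± 0.27 at 100 nmol/kg semaglutide (FDR = 0.000875). Scd1 was between 1039 and 1800 TPM in vehicle (median 1690 TPM), between 404 and 849 TPM at 30 nmol/kg BI 456906 (median 672 TPM) and between 211 and 1763 TPM at 100 nmol/kg semaglutide (median 1205 TPM). The groups at 3 and at 10 nmol/kg had means of 2233 ± 952 and 1987 ± 502 TPM beside 1604 ± 285 TPM in vehicle. Scd1 fell at 30 nmol/kg only, with a log2 fold change of -1.36 ± 0.34 (FDR = 0.00064), and the value of -0.79 ± 0.34 at 100 nmol/kg semaglutide lay just above the threshold (FDR = 0.0517). Without the vehicle library numbered 43, or without any of 3 semaglutide libraries (79, 80 or 84), Scd1 passed there, with log2 fold changes between -0.89 and -0.95.

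Pnpla3 was close to undetected in liver, between 0.17 and 0.44 TPM in vehicle (median 0.295 TPM) and between 0.21 and 0.36 TPM at 30 nmol/kg BI 456906 (median 0.30 TPM). No comparison of Pnpla3 passed in liver with limma/voom on the scaled reads, and with sample quality weights it passed as higher at 10 nmol/kg (0.69, FDR = 0.0191). The 95% interval of its log2 fold change at 30 nmol/kg ran from -0.64 to 0.50, so changes within these bounds were not told apart from 0.

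**Figure D3:**
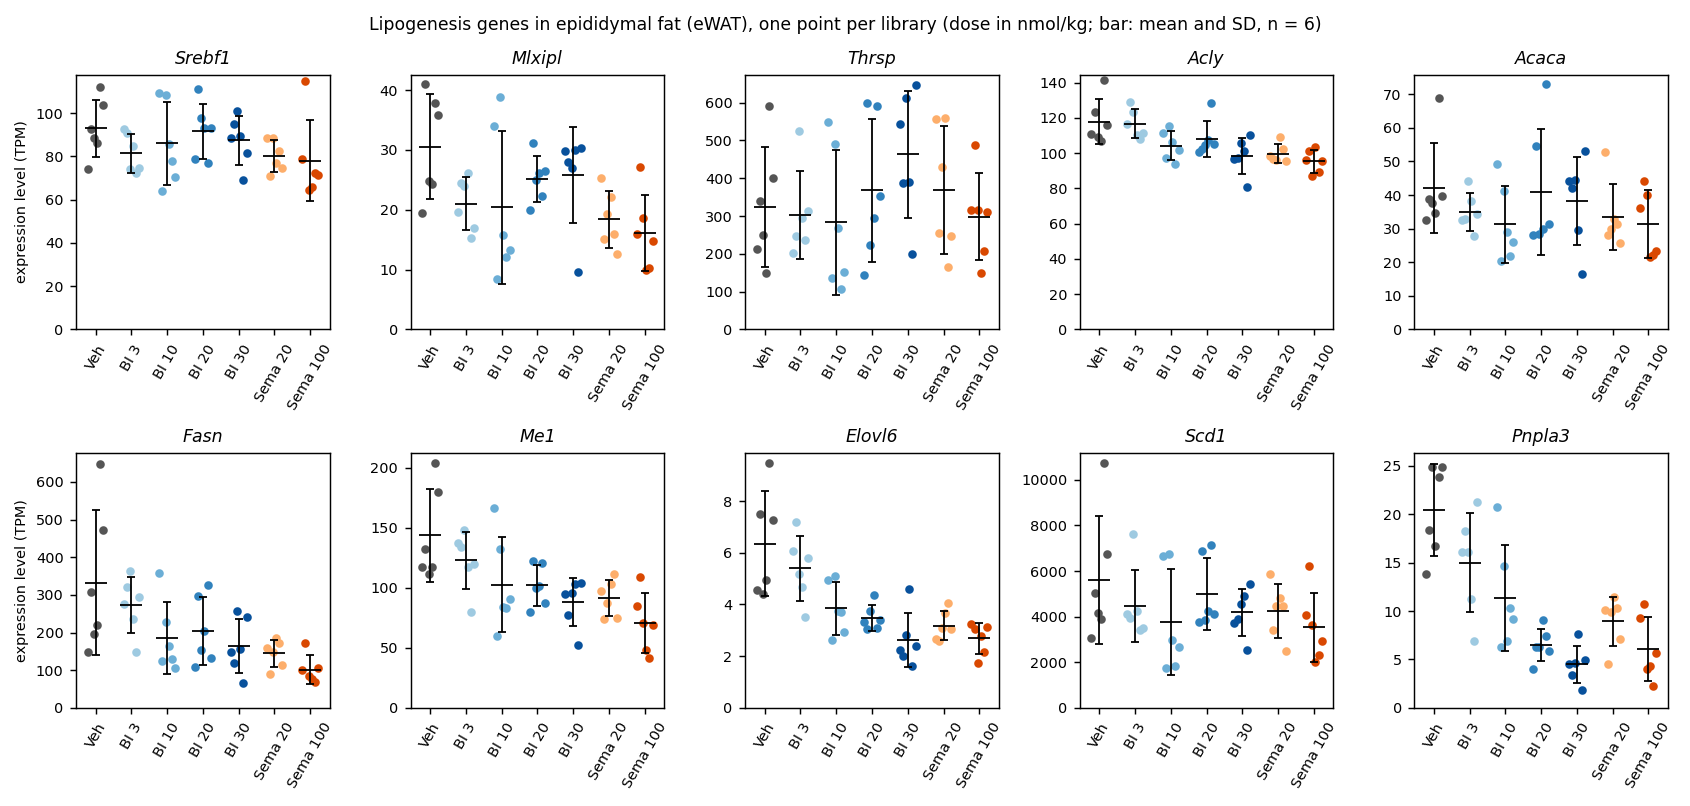
Expression of the 10 lipogenesis genes in eWAT, in TPM on linear axes that start at 0, with 1 point per library, the 7 treatment groups on the x axis (doses in nmol/kg) and bars for mean and SD (n = 6). Pnpla3 falls from a vehicle mean of 20.4 TPM to 4.51 TPM at 30 nmol/kg BI 456906, while Thrsp spreads from 149 to 591 TPM in vehicle alone.

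In eWAT fewer of the 10 genes were lower at the top dose of BI 456906. At 30 nmol/kg BI 456906, 5 of the 10 genes passed as lower (Acly, Fasn, Me1, Elovl6 and Pnpla3), against 13% of 18536 genes tested, and their median log2 fold change over all 10 was -0.34 against -0.03 for all genes. At 3 nmol/kg 0 of 10 passed, as did 0% of all genes, and at 10 nmol/kg 0 of 10 against 0.464%. edgeR and DESeq2 also called 0 at both doses, while sample quality weights called 6 genes at 10 nmol/kg (Mlxipl, Fasn, Me1, Elovl6, Scd1 and Pnpla3), all lower, and 0 at 3 nmol/kg. With limma/voom 1 gene at 3 nmol/kg and 7 genes at 10 nmol/kg had an unadjusted p under 0.05. At 20 nmol/kg 2 of 10 passed as lower against 2.91% of all genes. Semaglutide lowered 5 of 10 at 20 nmol/kg (4.54% of all genes) and 6 of 10 at 100 nmol/kg (9.42% of all genes). A fall of at least 2-fold was met by 3 of 10 at 30 nmol/kg BI 456906 (4.07% of all genes) and by 4 of 10 at 100 nmol/kg semaglutide (3.44% of all genes). Without the 5 libraries over 1000 TPM of Alb, 5 of 10 passed at 30 nmol/kg, 4 at 20 nmol/kg semaglutide and 6 at 100 nmol/kg semaglutide, and 2 passed at 10 nmol/kg BI 456906 (Mlxipl, -1.02, and Elovl6, -0.97). These comparisons without the 5 libraries left 3 vehicle libraries.

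Pnpla3 fell furthest in eWAT. It was between 13.8 and 24.9 TPM in vehicle (median 21.1 TPM), between 1.86 and 7.66 TPM at 30 nmol/kg BI 456906 (median 4.56 TPM) and between 2.23 and 10.8 TPM at 100 nmol/kg semaglutide (median 5.02 TPM). All treated libraries at 20 and 30 nmol/kg BI 456906 and at both doses of semaglutide lay below vehicle. The log2 fold change of Pnpla3 was -1.70 ± 0.31 at 20 nmol/kg (FDR = 0.00124) and -2.25 ± 0.33 at 30 nmol/kg (FDR = 1.44e-05), a 4.74-fold fall. With semaglutide it was -1.24 ± 0.29 at 20 nmol/kg (FDR = 0.00796) and -1.87 ± 0.31 at 100 nmol/kg (FDR = 0.000108). At the share of liver RNA given by Alb, liver would supply at most 0.127% of the Pnpla3 level of any vehicle eWAT library.

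Fasn, the main enzyme of the pathway, was variable in vehicle eWAT, between 148 and 648 TPM (median 264 TPM). It was between 66.4 and 256 TPM at 30 nmol/kg BI 456906 (median 152 TPM) and between 67.97 and 172 TPM at 100 nmol/kg semaglutide (median 93.7 TPM), with overlap in both cases. The log2 fold change of Fasn was -1.06 ± 0.35 at 30 nmol/kg (FDR = 0.023), -1.12 ± 0.34 at 20 nmol/kg semaglutide (FDR = 0.042) and -1.61 ± 0.34 at 100 nmol/kg semaglutide (FDR = 0.00134). The call of Fasn at 30 nmol/kg was lost without the vehicle library numbered 5 (log2 fold change -0.80), without the vehicle library numbered 6 (-0.92) or without the treated library numbered 29 (-0.79). At 20 nmol/kg semaglutide the Fasn call was lost without the libraries high in Alb (-1.42, FDR = 0.0578), on TPM (-1.04 and -1.05 with pseudocounts of 1 and 0.1), with library size alone (-1.10) and without the filter (-1.09).

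Me1 in eWAT was between 112 and 204 TPM in vehicle (median 125 TPM), between 52.5 and 104 TPM at 30 nmol/kg BI 456906 (median 95.4 TPM) and between 41.7 and 109 TPM at 100 nmol/kg semaglutide (median 69.6 TPM). The libraries of these groups and of 20 nmol/kg semaglutide were all below vehicle. Me1 gave log2 fold changes of -0.73 ± 0.20 at 30 nmol/kg (FDR = 0.00834), -0.66 ± 0.20 at 20 nmol/kg semaglutide (FDR = 0.044) and -1.07 ± 0.20 at 100 nmol/kg semaglutide (FDR = 0.000386). The Me1 call at 20 nmol/kg semaglutide was lost on TPM, with library size alone and without the filter, with log2 fold changes between -0.62 and -0.63. Acly was between 107 and 142 TPM in vehicle (median 113 TPM), between 80.7 and 110 TPM at 30 nmol/kg (median 99.3 TPM) and between 86.9 and 104 TPM at 100 nmol/kg semaglutide (median 95.8 TPM). Its falls were small: -0.33 ± 0.06 at 30 nmol/kg (FDR = 0.000256), -0.27 ± 0.06 at 20 nmol/kg semaglutide (FDR = 0.00621) and -0.28 ± 0.06 at 100 nmol/kg semaglutide (FDR = 0.00199).

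Elovl6, near the low end of the range in eWAT, was between 4.39 and 9.47 TPM in vehicle (median 6.11 TPM), between 1.61 and 4.58 TPM at 30 nmol/kg BI 456906 (median 2.30 TPM) and between 1.75 and 3.25 TPM at 100 nmol/kg semaglutide (median 2.93 TPM). The highest library at 30 nmol/kg met the vehicle range, while the groups at 20 nmol/kg BI 456906 and at both semaglutide doses were below it. The log2 fold change of Elovl6 was -0.83 ± 0.20 at 20 nmol/kg (FDR = 0.0128), -1.29 ± 0.21 at 30 nmol/kg (FDR = 5.49e-05), -0.99 ± 0.20 at 20 nmol/kg semaglutide (FDR = 0.00219) and -1.23 ± 0.21 at 100 nmol/kg semaglutide (FDR = 0.000137). At the Alb share, liver RNA would supply a median of 7.86% and at most 24.1% of the Elovl6 level of a vehicle eWAT library. Without the 5 libraries the log2 fold change of Elovl6 at 30 nmol/kg was -1.46, as large as with them.

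The regulators and Scd1 gave few calls in eWAT. Thrsp was between 149 and 591 TPM in vehicle (median 296 TPM) and between 201 and 647 TPM at 30 nmol/kg BI 456906 (median 467 TPM), with a log2 fold change of 0.54 ± 0.40 (FDR = 0.343). With sample quality weights Thrsp passed at this dose and along the dose of BI 456906. Srebf1 was between 74.3 and 112 TPM in vehicle (median 90.6 TPM) and between 68.9 and 101 TPM at 30 nmol/kg (median 88.9 TPM), with -0.10 ± 0.11 (FDR = 0.518). With limma/voom on all libraries Mlxipl passed only at 100 nmol/kg semaglutide (-0.94 ± 0.27, FDR = 0.0142), where it was between 9.88 and 27.2 TPM (median 15.4 TPM) against 19.5 to 40.9 TPM in vehicle (median 30.3 TPM). This Mlxipl call was lost without the semaglutide library numbered 41 (-0.87, FDR = 0.0502). With sample quality weights Mlxipl passed as well at 20 nmol/kg semaglutide and at 10 nmol/kg BI 456906. Liver RNA at the Alb share would supply a median of 14.4% and at most 39.7% of the Mlxipl level in vehicle eWAT, and without the 5 libraries Mlxipl gave -0.99 at 100 nmol/kg semaglutide. Acaca gave -0.15 ± 0.24 (FDR = 0.685) and Scd1 -0.35 ± 0.31 (FDR = 0.437) at 30 nmol/kg, where Scd1 was between 2553 and 5440 TPM against 3042 to 10721 TPM in vehicle.

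**Figure D4:**
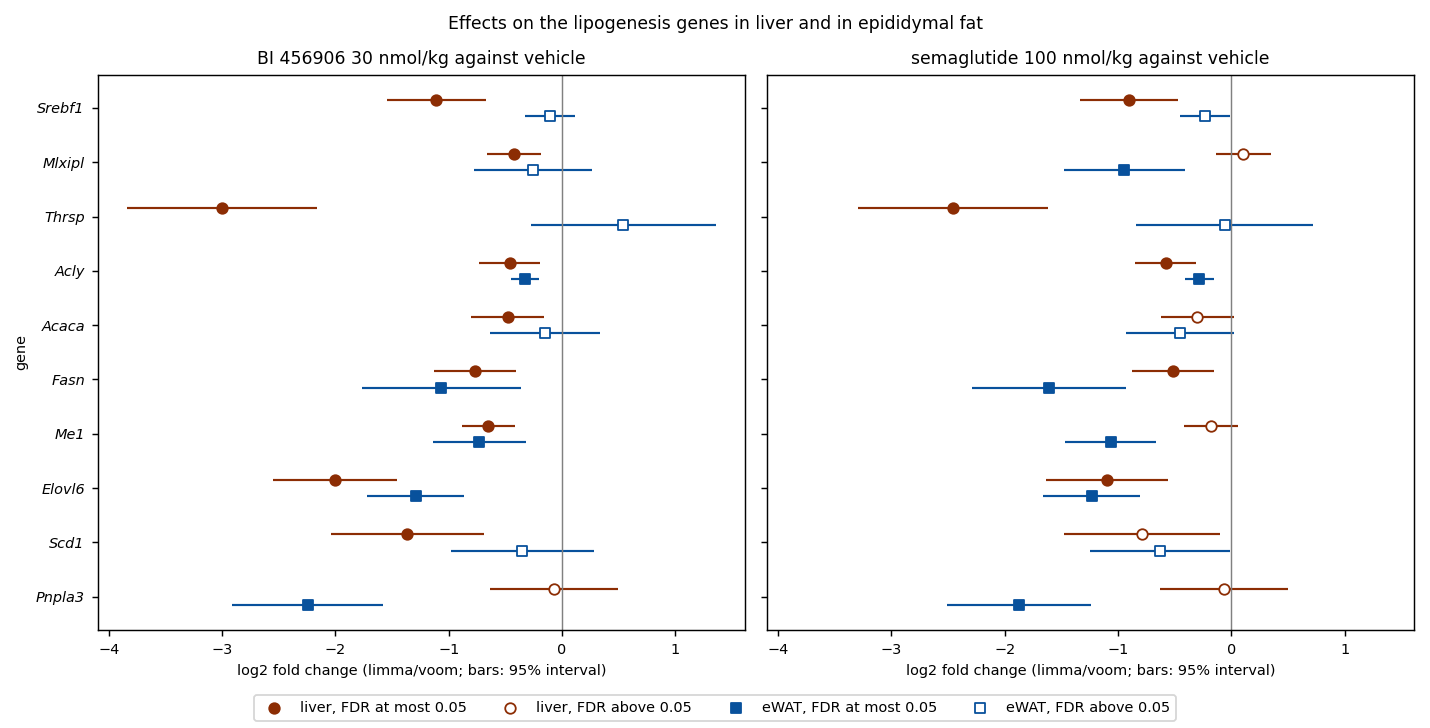
Log2 fold changes against vehicle of the 10 genes in liver (circles) and eWAT (squares), at 30 nmol/kg BI 456906 on the left and 100 nmol/kg semaglutide on the right, with 95% intervals from limma/voom; filled symbols have an FDR of at most 0.05. On the left Thrsp lies at -3.00 in liver and 0.54 in eWAT, and Pnpla3 at -0.07 in liver and -2.25 in eWAT.

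Whether the effect differed between the tissues was tested as an interaction over the 84 libraries, and positive values mean a smaller fall or a larger rise in eWAT than in liver. The difference passed for 4 of 10 genes at 30 nmol/kg BI 456906, against 45.9% of the 15297 genes tested in both tissues, and for 6 of 10 at 100 nmol/kg semaglutide against 33.9%. It passed for 0 of 10 at 3 nmol/kg (3.37% of all genes; 0 genes with an unadjusted p under 0.05, and 0 with edgeR and with DESeq2), for 1 at 10 nmol/kg (26.7%), for 2 at 20 nmol/kg (31.9%) and for 2 at 20 nmol/kg semaglutide (31.8%). Except at 100 nmol/kg semaglutide, the share among the 10 genes was below the share among all genes.

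Thrsp gave the largest difference among the 10 genes, 3.65 ± 0.60 on the log2 scale at 30 nmol/kg BI 456906 (FDR = 7.12e-07) and 2.45 ± 0.59 at 100 nmol/kg semaglutide (FDR = 0.000866). Without the 5 eWAT libraries high in Alb these Thrsp differences were 3.19 and 2.03 and passed, and those at 10 nmol/kg BI 456906 (1.60 ± 0.59 with all libraries, 0.98 without) and at 20 nmol/kg semaglutide (1.98 ± 0.60 with, 1.55 without) no longer did. Srebf1 differed by 0.83 ± 0.26 at 20 nmol/kg (FDR = 0.0091), 1.11 ± 0.26 at 30 nmol/kg (FDR = 0.000252) and 0.72 ± 0.26 at 100 nmol/kg semaglutide (FDR = 0.0236). Without the 5 libraries only the Srebf1 difference at 30 nmol/kg passed, at 0.92. Scd1 differed by 1.12 ± 0.47 at 30 nmol/kg (FDR = 0.0453), a call that 8 of the alternatives lost, with 0.76 for Scd1 without the 5 libraries.

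The opposite sign, a larger fall in eWAT, was found for Pnpla3, with -2.07 ± 0.70 at 30 nmol/kg (FDR = 0.0112) and -1.75 ± 0.69 at 100 nmol/kg semaglutide (FDR = 0.0416; lost without the filter on low values). Mlxipl differed by -0.92 ± 0.31 at 20 nmol/kg semaglutide (FDR = 0.0198) and -0.998 ± 0.32 at 100 nmol/kg semaglutide (FDR = 0.0104), and by 0.27 ± 0.31 at 30 nmol/kg BI 456906 (FDR = 0.497). Me1 differed by -0.83 ± 0.24 (FDR = 0.00429) and Fasn by -1.04 ± 0.38 (FDR = 0.0286) at 100 nmol/kg semaglutide, and the Fasn difference was -0.56 on TPM and did not pass. At 20 nmol/kg semaglutide, Me1 and Fasn passed only without the 5 libraries high in Alb or under other alternatives (-0.77 and -1.22 without these libraries). With limma/voom no difference between tissues passed for Acly, Acaca or Elovl6, for which the 95% intervals at 30 nmol/kg ran from -0.07 to 0.56, from -0.15 to 1.02 and from 0.07 to 1.57. With sample quality weights Acaca passed at 30 nmol/kg BI 456906. The interval of Elovl6 lay above 0 before adjustment (FDR = 0.0688).

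BI 456906 was compared with semaglutide directly, at a matched dose of 20 nmol/kg and, with different doses, at 30 nmol/kg against 20 and against 100 nmol/kg. In liver at 20 nmol/kg of each, 1 of 10 genes was lower with BI 456906, against 1.51% of all genes. This was Me1, with a log2 difference of -0.50 ± 0.12 (FDR = 0.0101). At this dose edgeR called 2 and DESeq2 4 genes, and Thrsp gave -1.39 ± 0.40 (FDR = 0.0505), Mlxipl -0.41 ± 0.12 (FDR = 0.0563) and Fasn -0.55 ± 0.18 (FDR = 0.0889). The 95% intervals of the other genes at the matched dose included 0, for example from -0.86 to 0.20 for Elovl6 and from -1.03 to 0.35 for Scd1.

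With 30 nmol/kg BI 456906 against 20 nmol/kg semaglutide, 6 of 10 genes were lower in liver, against 7.5% of all genes. They were Elovl6 (-1.45 ± 0.27, FDR = 0.000261), Thrsp (-1.26 ± 0.40, FDR = 0.0302), Scd1 (-1.21 ± 0.33, FDR = 0.0134), Mlxipl (-0.66 ± 0.12, FDR = 0.0002), Fasn (-0.56 ± 0.18, FDR = 0.0312) and Me1 (-0.52 ± 0.12, FDR = 0.00213), of which Thrsp and Fasn were lost without the filter. Against 100 nmol/kg semaglutide 3 of 10 were lower in liver, against 5.59% of all genes, namely Elovl6 (-0.91 ± 0.27, FDR = 0.0242; lost without the filter), Mlxipl (-0.53 ± 0.12, FDR = 0.00303) and Me1 (-0.47 ± 0.12, FDR = 0.00601). For Thrsp the interval against 100 nmol/kg ran from -1.34 to 0.26 and for Srebf1 from -0.63 to 0.22.

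In eWAT none of the 10 genes differed between the compounds with limma/voom in any of the 3 comparisons, and 0% of all genes passed as lower. edgeR and DESeq2 called 0 as well, and 0, 1 and 1 genes had an unadjusted p under 0.05. Sample quality weights called 0 at the matched dose, but at 30 nmol/kg called Mlxipl (0.70) and Pnpla3 (-0.85) against 20 nmol/kg semaglutide, and Mlxipl (0.82), Acaca (0.44) and Fasn (0.66) against 100 nmol/kg semaglutide. The largest size among them was for Pnpla3 at 30 nmol/kg against 20 nmol/kg semaglutide, -1.01 ± 0.34 with an interval from -1.69 to -0.33 (FDR = 0.217). Between the matched doses of 20 nmol/kg the interval for Pnpla3 was -1.09 to 0.17 and that for Fasn -0.25 to 1.08, both of which include 0.

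The dose of BI 456906 was also tested as a line from vehicle through 3, 10, 20 and 30 nmol/kg, in log2 units per 10 nmol/kg. In liver 9 of 10 genes fell along this line, against 29.6% of all genes. The steepest was Thrsp (-0.99 ± 0.12, FDR = 3.97e-09), then Elovl6 (-0.61 ± 0.08, FDR = 1.69e-08), Scd1 (-0.50 ± 0.10, FDR = 2.26e-05), Srebf1 (-0.35 ± 0.06, FDR = 6.56e-06), Fasn (-0.28 ± 0.05, FDR = 9.54e-06), Me1 (-0.23 ± 0.03, FDR = 1.77e-07), Acaca (-0.16 ± 0.05, FDR = 0.00239), Mlxipl (-0.14 ± 0.03, FDR = 0.000566) and Acly (-0.13 ± 0.04, FDR = 0.0045). Acaca did not pass on TPM (-0.04). Group means in TPM dropped at each of the 4 dose steps for Srebf1, Fasn and Me1 only. For Scd1, Mlxipl and Acaca the means in TPM at 3 and at 10 nmol/kg were above that of vehicle. In eWAT 5 of 10 genes fell along the line, against 15.8% of all genes: Pnpla3 (-0.72 ± 0.09, FDR = 2.12e-06), Elovl6 (-0.40 ± 0.06, FDR = 1.65e-05), Fasn (-0.33 ± 0.10, FDR = 0.0113), Me1 (-0.21 ± 0.06, FDR = 0.00537) and Acly (-0.11 ± 0.02, FDR = 3.42e-05). There the means dropped at each step for Me1, Elovl6 and Pnpla3, the last from 20.4 TPM through 14.99, 11.3 and 6.51 to 4.51 TPM.

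In TPM all 6 libraries at 30 nmol/kg lay below all 6 of vehicle for 5 of 10 genes in liver (Thrsp, Fasn, Me1, Elovl6 and Scd1), against 10.8% of all genes tested, and for 2 of 10 in eWAT (Me1 and Pnpla3), against 2.9%. No gene had all treated libraries above vehicle in any group. The order of the levels changed with treatment: in liver at 30 nmol/kg Thrsp, at 51.9 ± 15.5 TPM, stood behind Scd1 (674 ± 169 TPM), Mlxipl (158 ± 36.97 TPM), Me1 (74.2 ± 8.09 TPM) and Fasn (64.5 ± 4.75 TPM).

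Genes around the pathway were grouped in 6 lists of 52 genes in all. In liver 50 were tested at 30 nmol/kg BI 456906, of which 20 fell, 14 rose and 16 did not pass, where 29.9% of all genes passed as lower and 28.9% as higher, with a median log2 fold change of -0.20 against -0.03 for all genes. In eWAT 52 were tested, of which 15 fell, 3 rose and 34 did not pass, where 13% of all genes passed as lower and 10.9% as higher, with a median of -0.11 against -0.03. Without the 5 libraries over 1000 TPM of Alb, 9 of the 52 fell and 1 rose. At 100 nmol/kg semaglutide 19 fell and 12 rose in liver, against 24.1% of all genes lower and 24% higher. In eWAT 14 fell and 0 rose at that dose, against 9.42% and 5.48%, and 12 fell without the 5 libraries. The shares of these genes that rose lay near or below the shares of all genes, and the counts below are to be read against the same percentages.

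In both lists of supply, of acetyl-CoA and of NADPH, 4 of 5 genes fell in liver, where 29.9% of all genes passed as lower. For citrate and acetyl-CoA supply 0 rose and Mpc2, a subunit of the mitochondrial pyruvate carrier, did not pass (0.12 ± 0.07, FDR = 0.124), with the largest fall in Acss2, which makes acetyl-CoA from acetate (84.3 ± 25.7 TPM in vehicle, 23.1 ± 3.93 TPM at 30 nmol/kg, log2 fold change -1.95 ± 0.24, FDR = 1.24e-08). For NADPH supply 0 rose and Idh1, the cytosolic isocitrate dehydrogenase, did not pass (-0.03 ± 0.07, FDR = 0.764), and the largest fall was that of Tkt, transketolase of the pentose phosphate pathway (78.2 ± 9.07 to 36.9 ± 1.71 TPM, -1.16 ± 0.08, FDR = 7.35e-14). In eWAT 2 of 5 fell in each of these lists and 0 rose, with Acss2 (-0.70 ± 0.20, FDR = 0.0114) and G6pdx, the entry enzyme of that pathway (215 ± 43.2 to 134 ± 22.7 TPM, -0.68 ± 0.12, FDR = 0.000177), as the largest falls. Leaving out the 5 libraries high in Alb gave 2 and 1 of 5, with Idh1 no longer past the threshold.

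Fatty acid modification and malonyl-CoA gave 4 falls and 1 rise among 10 genes tested in liver. The largest fall was that of Mid1ip1, a relative of Thrsp that promotes acetyl-CoA carboxylase assembly (31.6 ± 4.38 to 15.6 ± 3.66 TPM, -1.19 ± 0.17, FDR = 1.75e-07), and the rise was that of Elovl2, an elongase of polyunsaturated fatty acids (0.30 ± 0.12, FDR = 0.0356). The share that fell is near that of all liver genes (29.9%). In eWAT 2 of 11 fell and 1 rose. Scd2, a desaturase like Scd1, fell there from 63.8 ± 26.7 to 15.5 ± 4.90 TPM (-2.01 ± 0.26, FDR = 2.13e-06), and Acacb, which makes the malonyl-CoA that restrains fatty acid oxidation, rose from 33.1 ± 13.2 to 76.4 ± 30.1 TPM (1.22 ± 0.42, FDR = 0.0323). The fall of Scd2 was as large without the 5 libraries high in Alb (-2.18), while Acacb did not pass (0.82, FDR = 0.331).

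Triglyceride assembly held genes that rose and genes that fell. In liver 2 of 7 genes fell and 4 rose, against 29.9% and 28.9% of all genes, with Lpin1, a phosphatidate phosphatase and coregulator, up from 24.5 ± 4.58 to 238 ± 51.6 TPM (3.19 ± 0.46, FDR = 2.56e-07) and the acyltransferase Mogat1 down from 10.5 ± 3.42 to 1.31 ± 0.363 TPM (-3.02 ± 0.32, FDR = 5.17e-10). In eWAT 4 of 8 fell and 1 rose, with Lpin1 up (1.24 ± 0.39, FDR = 0.0205) and Mogat2 down from 5.96 ± 2.28 to 0.717 ± 0.369 TPM (-3.17 ± 0.48, FDR = 1.98e-05). Mogat2 gave -3.49 without the 5 libraries, while Lpin1 then did not pass (0.83, FDR = 0.286), and 3 of 8 fell and 0 rose.

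Among 14 genes that control SREBP-1 and ChREBP, 1 fell and 6 rose in liver, against 29.9% and 28.9% of all genes. Pparg, a driver of fat storage, fell from 16.1 ± 3.97 to 2.44 ± 1.08 TPM (-2.71 ± 0.31, FDR = 2.72e-09), and Ppargc1b, a coactivator, rose from 1.48 ± 0.282 to 3.96 ± 0.538 TPM (1.33 ± 0.18, FDR = 5.26e-08). In eWAT 1 fell and 0 rose, the fall being that of Insig1, which holds SREBPs in the endoplasmic reticulum (76.1 ± 17.2 to 42.3 ± 5.85 TPM, -0.86 ± 0.14, FDR = 7.12e-05). Of 9 genes of glucose entry and its control, 5 fell and 3 rose in liver, the latter near the 28.9% of all genes that rose, with Pklr, the liver pyruvate kinase and a target of ChREBP, down from 291 ± 31.2 to 60.1 ± 14.4 TPM (-2.50 ± 0.20, FDR = 1.08e-12) and Irs2, an insulin signalling adaptor, up (1.19 ± 0.20, FDR = 4.6e-06). In eWAT 4 of 9 fell and 1 rose, Irs2 (0.68 ± 0.22, FDR = 0.0209). The largest fall there, of Pklr (-5.52 ± 1.92, FDR = 0.0335), was from 6.87 ± 7.87 to 0.135 ± 0.151 TPM, and Alb in the same libraries had medians of 917 and 59.4 TPM. Without the 5 libraries high in Alb, Pklr gave -3.47 (FDR = 0.117) and Irs2 0.56 (FDR = 0.169), neither past the threshold, and 1 of the 9 genes fell and 0 rose.

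**Figure D5:**
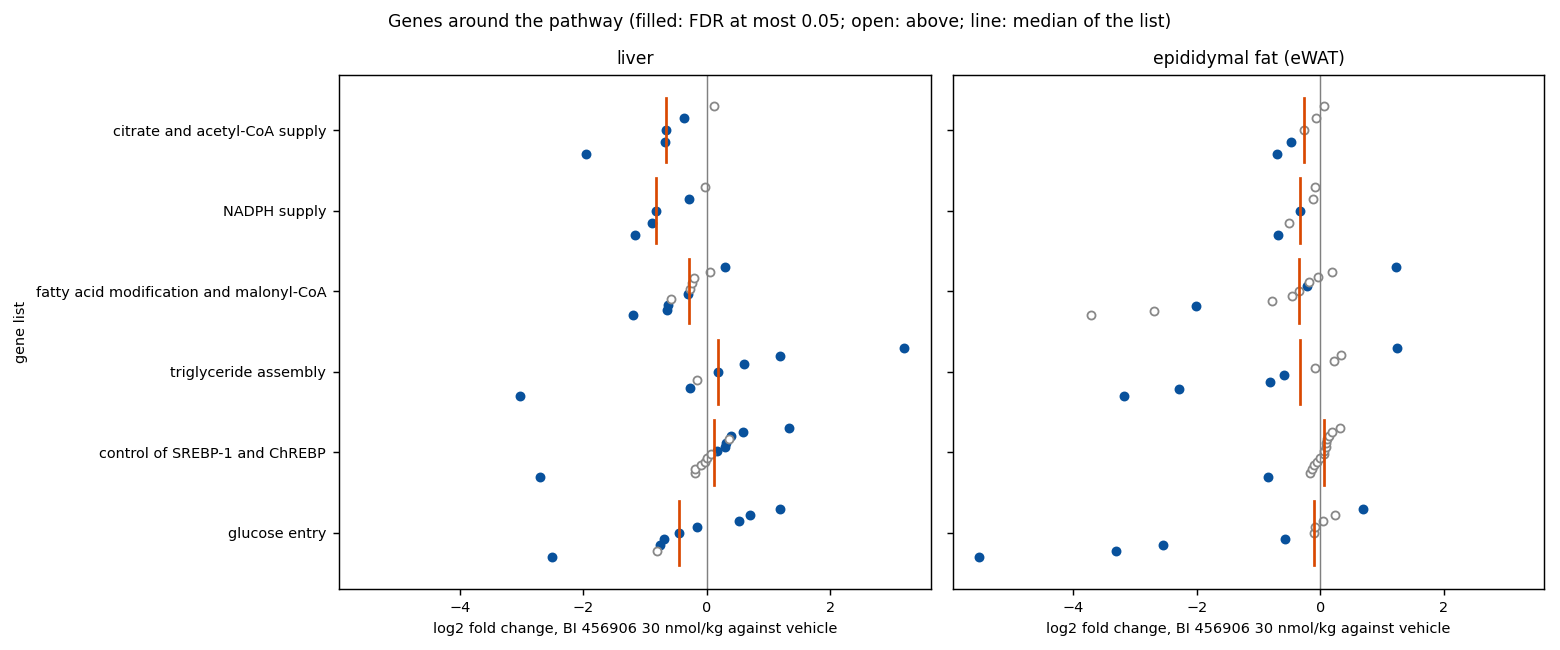
Log2 fold changes at 30 nmol/kg BI 456906 against vehicle of the genes in the 6 lists around the pathway, in liver on the left and eWAT on the right; each point is a gene, filled where the FDR is at most 0.05, and the line is the median of the list. In liver the medians of citrate and acetyl-CoA supply and of NADPH supply lie at -0.67 and -0.81, and that of triglyceride assembly at 0.18.

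Near relatives of the 10 genes, whose reads could be split with them, did not follow a common course at 30 nmol/kg. In liver Scd2 fell (-0.65 ± 0.20, FDR = 0.00655) at a level of 2.28 TPM in vehicle, Srebf2, which drives sterol synthesis, rose (0.29 ± 0.10, FDR = 0.0116), and Acacb (-0.28 ± 0.17, FDR = 0.164) and Pnpla2, the main triglyceride lipase of fat (0.23 ± 0.19, FDR = 0.304), did not pass. In eWAT Srebf2 (-0.16 ± 0.12, FDR = 0.354), Mid1ip1 (-0.04 ± 0.09, FDR = 0.799) and Pnpla2 (0.63 ± 0.26, FDR = 0.0732) did not pass. Scd3, Scd4 and Pnpla5 were at or below 0.22 TPM in every library of the vehicle, 30 nmol/kg and 100 nmol/kg semaglutide groups.

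Across the 42 libraries of a tissue, which share treatment groups, the 45 pairs of genes had a median Pearson r of 0.57 in liver and 0.63 in eWAT, given as a description. The closest pair was Srebf1 and Acly in liver (r = 0.82) and Fasn and Me1 in eWAT (r = 0.92), and the loosest was Mlxipl and Pnpla3 in liver (r = 0.26) and Thrsp and Acly in eWAT (r = -0.10). The other genes whose levels were most like the 10, by mean r over the 42 libraries, were Pdk1 (0.70), Slc2a2 (0.68), Acss2 (0.68), Slc17a4 (0.67) and Cyb5r3 (0.67) in liver, and Tcaf1 (0.75), Prr16 (0.74), Gpt (0.74), Cav1 (0.74) and Mgll (0.74) in eWAT. None of the 5 was shared between the tissues.

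Part of the cell type markers passed in each tissue, and they are given beside these results. In eWAT 13% of all genes passed as lower and 10.9% as higher at 30 nmol/kg BI 456906. At 100 nmol/kg semaglutide these shares were 9.42% and 5.48%. In eWAT the summed level of 10 hepatocyte markers was between 1452 and 11381 TPM in vehicle. At 30 nmol/kg BI 456906 it was between 1783 and 4592 TPM, and 4 of 10 passed as lower. Much of this sum was not Alb, which was between 3.47 and 3680 TPM over the eWAT libraries. Of the other hepatocyte markers there, Tf was between 915 and 2348 TPM and Cyp2e1 between 51.8 and 2413 TPM. The summed level of 10 adipocyte markers in eWAT was between 19758 and 38874 TPM in vehicle (median 22491 TPM). At 30 nmol/kg it was between 19285 and 36440 TPM (median 33176 TPM), where 1 of 10 was lower (Lep) and 1 higher (Cfd). At 100 nmol/kg semaglutide the adipocyte sum was between 13323 and 32457 TPM (median 21180 TPM), with 3 of 10 lower and 0 higher. Macrophage markers summed to between 1953 and 5273 TPM in vehicle, 2485 and 6686 TPM at 30 nmol/kg and 4031 and 6406 TPM at 100 nmol/kg semaglutide, and all 4 mesothelial markers were higher at 30 nmol/kg. With the 5 libraries left out, 0 of 10 hepatocyte markers passed as lower at 30 nmol/kg, Cfd did not pass, and the 4 mesothelial markers were higher as before. The log2 fold changes of the hepatocyte markers stayed below 0 (Alb -1.56, Apoa2 -2.39) except for Cyp2e1 (1.82). The vehicle libraries that remained held 9.87, 458 and 797 TPM of Alb, so a signal of liver transcripts was not removed. In liver the hepatocyte sum was between 119228 and 136012 TPM in vehicle and between 133689 and 143838 TPM at 30 nmol/kg. At 30 nmol/kg 4 of 10 hepatocyte markers were lower and 4 higher, against 29.9% and 28.9% of all genes. Other marker lists in liver at that dose held 4 of 6 tested adipocyte markers lower and 1 higher, 3 of 8 macrophage markers lower, 4 of 5 fibroblast markers lower and 1 higher, and 2 of 4 mesothelial markers lower, against 29.9% of all genes lower. The part of cell composition in the changes of the lipogenesis genes was not tested.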

How the data were processed

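RNA sequencing of 42 liver and 42 eWAT libraries was analysed, with 7 groups of 6 per tissue. The labels describe the SMART-Seq v4 kit and single reads, and the study's methods describe stranded poly(A) libraries read from both ends. Which holds for which tissue is not stated. The submitters' processing notes name STAR 2.5.2b, RSEM 1.3.0, featureCounts 1.5.1 and FastQC 0.11.5, and mm10/GRCm38. The deposited read table holds a scaled signal, in which the authors divided the read count of each gene by 1 factor per library. Every value was a whole multiple of 1 step per library (100% within a tolerance of 0.001), which gave whole reads back. The authors also deposited TPM, in which a gene's level depends on all other transcripts of the library, and these values gave the levels.

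From the scaled signal, limma/voom (limma 3.58.1 and edgeR 4.0.16 in R 4.3.3) was fitted per tissue over all 7 groups with TMM normalization, filterByExpr and a pseudocount of 0.5, and over all 84 libraries for the difference between tissues. The study used limma/voom on counts. Here the deposited values are not whole counts, so edgeR's quasi-likelihood test and DESeq2 1.42.0 on the recovered reads served as alternatives, beside other scaling factors, other filters, log2(TPM + 1) and log2(TPM + 0.1), sample quality weights and single libraries left out. A gene passed at an FDR of at most 0.05, adjusted over all genes tested (15964 in liver, 18536 in eWAT, 15297 in both). The labels do not say that libraries of a group are separate mice, so p-values measure the spread between these libraries. The closest pair of libraries within a group had a chi-square per degree of freedom of 15.9 in liver and 13.4 in eWAT, so none was a copy within counting error. The limma/voom fit within a tissue was tested on counts simulated from the liver libraries, and the other fits were not tested in this way.

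Symbols came from GENCODE M21 (48348 of 48794 identifiers matched). The 10 genes, the 6 lists around the pathway and the marker lists were chosen with earlier results of these data known. Named genes are the 10 genes, the largest rise and fall past the threshold in each list at 30 nmol/kg, relatives that might share reads, the 5 genes per tissue most like the 10, and tissue markers. Sharing of reads between relatives was not measured. Of the 8 marker lists, endothelial markers gave 0 of 4 lower and 0 of 4 higher in eWAT at 30 nmol/kg, macrophage markers 0 and 0 of 8, fibroblast markers 0 and 1 of 5, lymphocyte markers 1 and 0 of 4, and epididymal epithelium markers 0 and 0 of 1 tested. In liver endothelial markers gave 0 and 1 of 4, lymphocyte markers 0 and 0 of 4 and epididymal epithelium markers 0 and 1 of 1 tested.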

Additional observations from a re-analysis of the deposited data

Results flagged for a closer look

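The effect of treatment differed between the tissues for 15 values, tested as an interaction with limma/voom and given on the log2 scale as eWAT minus liver. Of the 10 genes, 4 passed at 30 nmol/kg BI 456906 and 6 at 100 nmol/kg semaglutide, against 45.9% and 33.9% of all genes. In the other groups 0 to 2 of 10 passed, against 3.37% to 31.9% of all genes. Only at 100 nmol/kg semaglutide was the share among the 10 genes above that of all genes. Thrsp differed at 10 nmol/kg BI 456906 (1.60), 20 nmol/kg (3.33), 30 nmol/kg (3.65), 20 nmol/kg semaglutide (1.98) and 100 nmol/kg semaglutide (2.45). Srebf1 differed at 20 nmol/kg (0.83), 30 nmol/kg (1.11) and 100 nmol/kg semaglutide (0.72), and Scd1 at 30 nmol/kg (1.12). Without the eWAT libraries high in Alb, Thrsp did not pass at 10 nmol/kg BI 456906 or 20 nmol/kg semaglutide. Srebf1 then passed at 30 nmol/kg only. Differences of the other sign were those of Pnpla3 at 30 nmol/kg (-2.07) and at 100 nmol/kg semaglutide (-1.75), of Mlxipl at 20 nmol/kg semaglutide (-0.92) and 100 nmol/kg semaglutide (-0.998), and of Fasn (-1.04) and Me1 (-0.83) at 100 nmol/kg semaglutide.

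A library lay far from the other 5 of its group in 14 of 140 groups (10%), where the gap to its nearest neighbour, as a share of the range in TPM, was above Dixon's 95% critical value. Chance gives about 1 in 20. In liver the library numbered 57 (10 nmol/kg BI 456906) was high for Acly (80.4), Fasn (167.6) and Me1 (123), the library numbered 70 (30 nmol/kg) was high for Srebf1 (60.1) and Acly (55.97), and the vehicle library numbered 43 was low for Scd1 (1039). In eWAT the library numbered 9 (3 nmol/kg) was high for Thrsp (524) and Scd1 (7616), the library numbered 38 (100 nmol/kg semaglutide) was high for Srebf1 (115) and Fasn (172), and the library numbered 29 (30 nmol/kg) was low for Mlxipl (9.56). Single high values in eWAT were those of Acly in the library numbered 23 (20 nmol/kg, 128.6), of Acaca in the vehicle library numbered 5 (68.8) and of Acaca in the library numbered 31 (20 nmol/kg semaglutide, 52.9).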

How the results depend on the processing

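No paired analysis was possible because each library carries a number of its own, and no group shares replicate numbers with another. Of 298 recomputed counts of genes past the threshold, 275 were within 1.5 times the reported count and 23 were not. In liver, BI 456906 against semaglutide at 20 nmol/kg moved from 1 to 2 genes with a minimum of 10 in every library and with edgeR, and to 4 with DESeq2 and with sample quality weights. In eWAT, 10 nmol/kg BI 456906 moved from 0 to 6 with quality weights and to 2 without the libraries over 1000 TPM of Alb, and 20 nmol/kg semaglutide moved from 5 to 3 with library size alone, without the filter and with both TPM scales. Quality weights moved 30 nmol/kg BI 456906 in eWAT from 0 to 2 against 20 nmol/kg semaglutide and from 0 to 3 against 100 nmol/kg. The number of genes that differed between tissues moved at 10 nmol/kg from 1 to 2 with library size alone, edgeR, DESeq2, both TPM scales and TMM within each tissue, and to 3 with quality weights. It moved at 20 nmol/kg from 2 to 1 without the libraries high in Alb, and at 20 nmol/kg semaglutide from 2 to 4 with edgeR and DESeq2 and to 5 with quality weights. The cause of these shifts was not tested. With single libraries left out, the counts ranged from 9 to 9 in liver and from 4 to 5 in eWAT at 30 nmol/kg, and from 5 to 6 and from 5 to 7 at 100 nmol/kg semaglutide.

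For single genes, 1001 recomputed values of 116 results held 879 on the same side of the threshold, 53 that lost and 69 that gained a call, and 0 reversed. With single libraries left out, 296 of 305 kept their side, 4 lost and 5 gained a call, and without eWAT library 38 Srebf1 passed at 100 nmol/kg semaglutide (-0.35). Of 2154 values that passed nowhere, 94 changed sign. The alternatives without the libraries high in Alb and without the liver library under 25000000 reads (numbered 77, 20 nmol/kg semaglutide) were chosen after seeing the data. Pnpla3 in liver was under 1 TPM in every group, with an SE (0.28) close to that of Elovl6 (0.27) at 30 nmol/kg.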
